A study of Homo sapiens with 36 samples.

Results

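The genes described here are 10 inflammatory mediators: the chemokines CXCL1, CXCL2, CXCL3, CXCL8 and CCL2, the cytokines IL1A, IL1B, IL6 and LIF, and the prostaglandin synthase PTGS2. They were taken by symbol from the authors' deposited table, which holds all 10 among its 11828 genes. The table comes from an RNA sequencing study of cancer cell lines with 36 libraries, of which 16 form an experiment on A375 melanoma cells, which carry mutant BRAF, and HCC827 lung adenocarcinoma cells, which carry mutant EGFR. Each line was treated for 3 days in 4 ways with 2 libraries each: 6-thio-dG together with a targeted drug (the combination), 6-thio-dG alone, the targeted drug alone, and DMSO as control. 6-thio-dG, a guanine nucleoside analogue, can be built into telomeres by telomerase, and the targeted drug was the BRAF inhibitor PLX4720 in A375 and the EGFR inhibitor osimertinib in HCC827. The other 20 libraries, a time course of 4 lines, were not analysed here.

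The table gives 4 comparisons, listing for every gene its log2 fold change with raw and adjusted p-values. These are 6-thio-dG over a reference its header calls "RNA", read here as the control, and the combination over a reference it calls "TKI1". The latter is read here as the targeted drug alone, with both its libraries. In each line 1 library of that group is titled TKI-1, so the header could also mean that library only. No source used here settles this. Values of single libraries fill 0 of its columns, so levels, depth and the spread between libraries are unknown, and line identity could not be checked by marker levels. The table has rows for 6 of 6 epithelial markers looked for, 2 of 7 melanocyte markers (PMEL and MITF), 1 of 4 leukocyte markers (CD68) and 1 of 3 fibroblast markers (COL1A1). The error quoted is the standard error (SE) that a fold change and its p-value imply under a normal test. Nothing in the labels says that the libraries of a group came from separate cultures, so the p-values may measure technical spread. A gene is said to have risen or fallen where the authors' adjusted p was under 0.05.

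Chemokines are small secreted proteins that draw leukocytes towards a tissue. CXCL1, CXCL2, CXCL3 and CXCL8 bind the receptor CXCR2 and recruit neutrophils, and CCL2 recruits monocytes through CCR2. IL1A and IL1B signal through the interleukin 1 receptor to NF-kB, a family of transcription factors that in turn drives these same chemokines, IL6 and PTGS2. IL6 and LIF act through receptors that share the subunit gp130 (IL6ST) and the JAK-STAT pathway. PTGS2, also called COX-2, makes the precursor of prostaglandins from arachidonic acid. Tumour cells and senescent cells can secrete these mediators, and their transcripts are short-lived, with AU-rich elements in the 3′ UTR that recruit decay proteins such as ZFP36.

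The promoters of the 4 CXCR2 ligands and of IL6 are shown because all hold the core of an NF-kB site close to the start, while that of PTGS2 is shown as a gene without this match. The windows are the 160 bases before the transcription start in the RefSeq promoter table (GRCh38.p14), which had an entry for 8 of the 10 genes, CCL2 and LIF not among them. Capitals mark matches to the NF-kB core GGANTTTCC, to the AP-1 site TGANTCA (in CXCL8, the first in the line) and to the C/EBP site TTGCNNAA (in IL6, the first in the line, and in PTGS2), each searched on both strands.
CXCL1 (chr4:73869233-73869392, plus strand): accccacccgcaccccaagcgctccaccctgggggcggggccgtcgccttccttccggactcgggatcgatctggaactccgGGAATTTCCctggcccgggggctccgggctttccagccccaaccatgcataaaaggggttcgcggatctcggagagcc
CXCL2 (chr4:74099196-74099355, minus strand): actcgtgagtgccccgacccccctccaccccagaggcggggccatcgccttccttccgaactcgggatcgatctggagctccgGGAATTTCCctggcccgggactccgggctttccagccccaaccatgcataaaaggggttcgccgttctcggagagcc
CXCL3 (chr4:74038690-74038849, minus strand): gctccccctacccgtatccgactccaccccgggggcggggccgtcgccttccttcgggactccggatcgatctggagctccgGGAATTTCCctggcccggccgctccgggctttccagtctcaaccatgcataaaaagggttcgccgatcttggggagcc
CXCL8 (chr4:73740409-73740568, plus strand): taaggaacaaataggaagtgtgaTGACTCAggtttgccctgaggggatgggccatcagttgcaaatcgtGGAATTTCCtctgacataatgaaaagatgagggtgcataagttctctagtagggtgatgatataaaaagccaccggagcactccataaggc
IL6 (chr7:22727040-22727199, plus strand): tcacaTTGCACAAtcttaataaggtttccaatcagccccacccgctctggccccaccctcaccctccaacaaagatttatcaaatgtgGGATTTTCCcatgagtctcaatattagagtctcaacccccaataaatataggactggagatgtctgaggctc
PTGS2 (chr1:186680424-186680583, minus strand): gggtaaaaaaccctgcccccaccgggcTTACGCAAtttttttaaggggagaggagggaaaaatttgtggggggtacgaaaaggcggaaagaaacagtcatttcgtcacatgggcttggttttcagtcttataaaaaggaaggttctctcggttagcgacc

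Counted from the start, with negative numbers upstream, the NF-kB core begins at position -78 in CXCL1 and CXCL3, -77 in CXCL2, -91 in CXCL8 and -72 in IL6. Of all 35116 promoters in the RefSeq table, 1.45% hold this match within 250 bases upstream. The AP-1 letters occur in CXCL8 and IL1A (6.57% of all promoters), the C/EBP letters in CXCL2, IL1B, IL6 and PTGS2 (9.05%), and the cyclic AMP response letters TGACGTNA in 0 of the 8 genes (2.67%). No match shown overlaps that of another motif, and a match is a description of the sequence and not of binding.

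**Figure D1:**
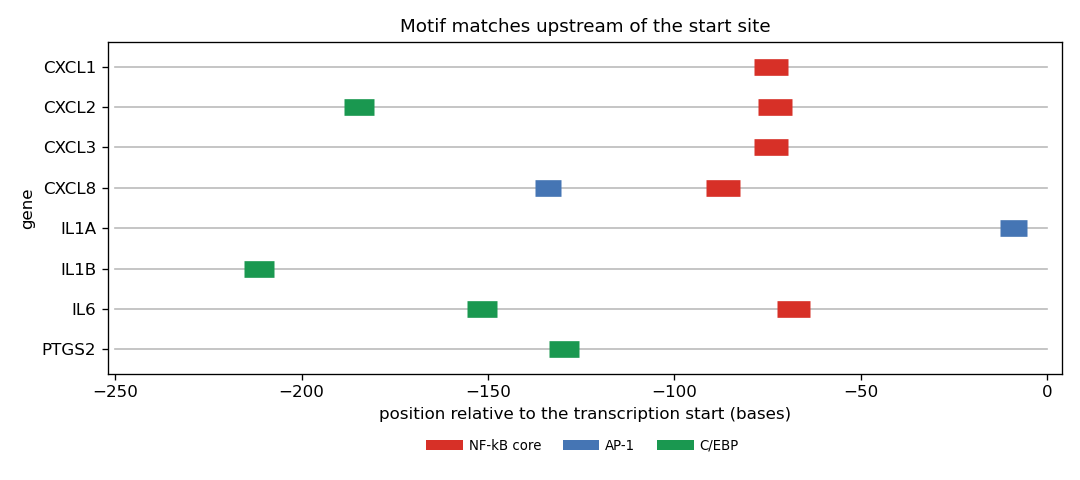
Positions of motif matches (coloured blocks) in the 250 bases upstream of the transcription start for the 8 genes with a RefSeq promoter entry. The x axis is the position relative to the start in bases; for IL1A, which has 2 listed starts, the first is drawn. The NF-kB core lies between positions -91 and -64 in CXCL1, CXCL2, CXCL3, CXCL8 and IL6.

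Among the neutrophil chemokines, CXCL1 fell in all 4 comparisons. Its log2 fold change in the authors' deposited table was -2.39 ± 0.16 (SE) for 6-thio-dG alone in A375 (adjusted p = 3.95e-48) and -2.32 ± 0.18 in HCC827 (adjusted p = 2.45e-35), a 5.23-fold and a 5.01-fold lower level. On top of the targeted drug, the authors' deposited table gives CXCL1 at -3.32 ± 0.21 in A375 (adjusted p = 4.07e-54), 9.97-fold lower, and at -0.74 ± 0.19 in HCC827 (adjusted p = 0.00095), 1.67-fold lower. In bulk RNA such as this, fewer cells that make a transcript and less of it per cell cannot be told apart.

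The other 3 CXCR2 ligands fell in HCC827 with 6-thio-dG alone and passed no test in A375 with 6-thio-dG alone. For CXCL2 the authors' deposited table gives 0.31 ± 0.54 in A375 (adjusted p = 0.65), against -2.35 ± 0.19 in HCC827 (adjusted p = 6.83e-31). CXCL8, also called interleukin 8, stood at -0.16 ± 0.16 in A375 (adjusted p = 0.40) and at -2.11 ± 0.18 in HCC827 (adjusted p = 9.03e-30) in the authors' deposited table. For CXCL3 it lists -0.43 ± 0.44 in A375 (adjusted p = 0.40) and -1.45 ± 0.31 in HCC827 (adjusted p = 3.57e-05), again per the authors' deposited table. CXCL8 has the lowest GC content of the 10 transcripts (33.4%), and the trend over all genes at that GC content was 1.29 with 6-thio-dG alone in A375. With this trend removed from the authors' values, CXCL8 in A375 was at -1.45 for 6-thio-dG alone (adjusted p = 6.11e-19) and at -0.83 for the combination (adjusted p = 0.00013), both below 0 and past the threshold.

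On top of the targeted drug CXCL2 and CXCL3 fell in A375, CXCL3 fell in HCC827, and CXCL8 passed no test. CXCL2 was at -1.21 ± 0.47 in A375 (adjusted p = 0.021) and at -1.26 ± 0.62 in HCC827 (adjusted p = 0.099) in the authors' deposited table. CXCL3 was at -1.09 ± 0.46 in A375 (adjusted p = 0.036) and at -0.95 ± 0.27 in HCC827 (adjusted p = 0.0034) there, the HCC827 value passing no test once the GC trend was removed from the authors' values (-0.75, adjusted p = 0.076). CXCL8 was at -0.29 ± 0.20 in A375 and at -1.02 ± 0.62 in HCC827 in the authors' deposited table. The errors in HCC827 with osimertinib were more than 3 times those with 6-thio-dG alone for CXCL2 and CXCL8.

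CXCL1, CXCL2 and CXCL3 are close paralogs on chromosome 4 (GRCh38), with CXCL8 in the same cluster. CXCL8 spans 73740506 to 73743716 and CXCL1 73869393 to 73871242 on the plus strand, and CXCL3 spans 74036589 to 74038807 and CXCL2 74097035 to 74099293 on the minus strand. Of the 50-base stretches in their longest GENCODE transcripts, 5.73% in CXCL1, 9.24% in CXCL2 and 5.26% in CXCL3 also occur in another of these 3 genes, and 0% in CXCL8. How the authors counted reads that fit several genes is not given in the sources used here, so the split between CXCL1, CXCL2 and CXCL3 carries that uncertainty. MTHFD2L, a folate enzyme gene 14881 bases from CXCL2, passed no test in any of the 4 comparisons.

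CCL2, the monocyte chemokine, fell in A375 only among the 2 lines tested, and the difference between lines passed its own test for 6-thio-dG alone and for the combination. In A375 the authors' deposited table gives -1.95 ± 0.22 for 6-thio-dG alone (adjusted p = 4.49e-18), 3.86-fold lower, and -4.73 ± 0.15 for the combination over PLX4720 (adjusted p = 7.82e-202), 26.5-fold lower. That combination value is the lowest of the 10 genes in any comparison and ranks as number 57 of 11828 genes from the lowest in A375. In HCC827 CCL2 was at -0.23 ± 0.56 for 6-thio-dG alone (adjusted p = 0.81) and at -0.024 ± 0.38 for the combination (adjusted p = 0.97) in the authors' deposited table.

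**Figure D2:**
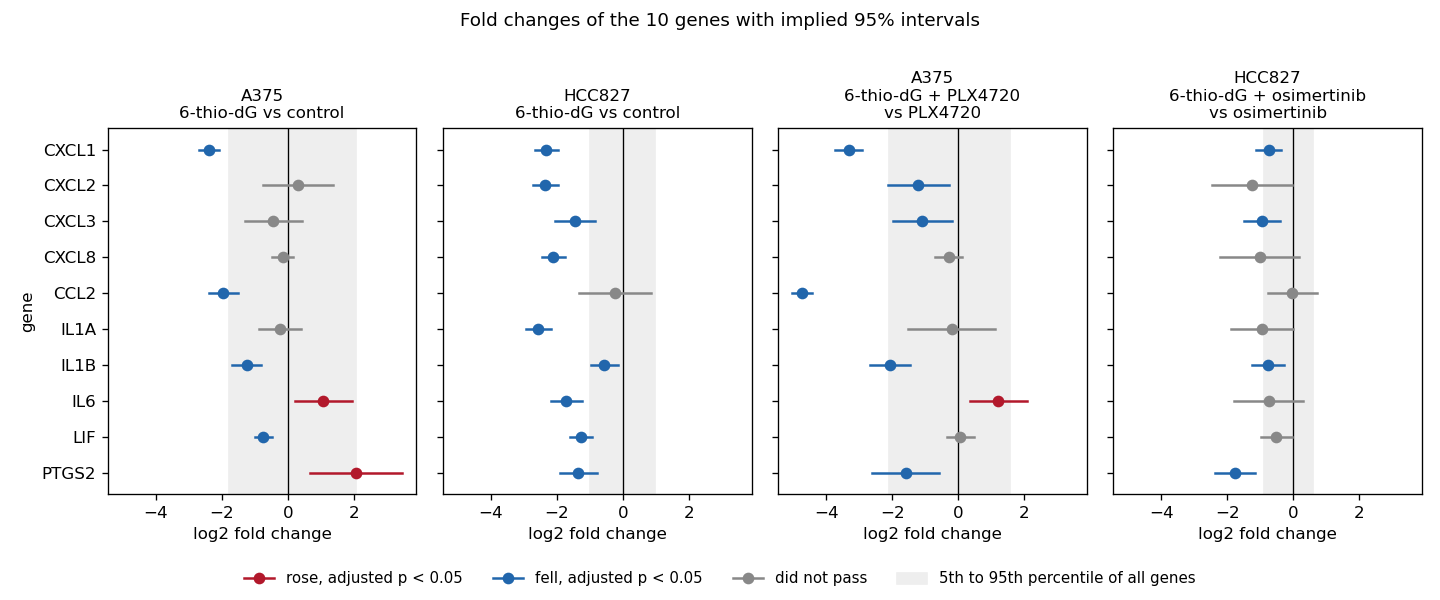
Log2 fold changes (x axis) of the 10 genes (y axis) in the 4 comparisons, from the authors' deposited table, with the 95% intervals that the p-values imply as bars and the 5th to 95th percentile of all genes in grey. In HCC827 with 6-thio-dG alone 9 of 10 genes lie below 0 past the threshold, as 14.4% of all genes do. In A375 with 6-thio-dG alone IL6 and PTGS2 lie above 0 and CXCL1 and CCL2 below.

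The interleukin 1 genes, neighbours 45161 bases apart on chromosome 2, did not share a pattern. IL1A, whose product works as an alarm signal when cells are damaged, had the largest fall of the 10 in HCC827 with 6-thio-dG alone: -2.56 ± 0.19 in the authors' deposited table (adjusted p = 3.13e-38), 5.92-fold lower and number 34 of 11828 from the lowest. IL1A passed no test elsewhere, with -0.24 ± 0.32 for 6-thio-dG alone in A375, -0.19 ± 0.68 when added to PLX4720 in A375 and -0.95 ± 0.48 when added to osimertinib in HCC827 (adjusted p = 0.54, 0.83 and 0.11) in the authors' deposited table. With the GC trend removed from the authors' values, IL1A in A375 with 6-thio-dG alone was at -0.92 (adjusted p = 0.0092).

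IL1B, the secreted form made by inflammasome-dependent cleavage, fell in all 4 comparisons. For 6-thio-dG alone the authors' deposited table gives -1.24 ± 0.23 in A375 (adjusted p = 1.74e-07) and -0.56 ± 0.21 in HCC827 (adjusted p = 0.034). For the combination it gives IL1B at -2.06 ± 0.31 in A375 (adjusted p = 3.04e-10) and -0.77 ± 0.24 in HCC827 (adjusted p = 0.0081), as the authors' deposited table lists them. With the GC trend removed from the authors' values IL1B in HCC827 kept most of its size but missed the threshold, at -0.51 for 6-thio-dG alone (adjusted p = 0.055) and at -0.63 for the combination (adjusted p = 0.11). CXCL1 and IL1B were the 2 of 10 genes that fell in every comparison, against 54 of all 11828 genes (0.457%). CKAP2L, a mitotic spindle gene 9238 bases from IL1A, was at -3.34 for 6-thio-dG alone in A375 and at 0.40 in HCC827 in the authors' deposited table, unlike IL1A in both.

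IL6 moved in opposite directions in the 2 lines. It rose in A375, by 1.07 ± 0.44 for 6-thio-dG alone (adjusted p = 0.028) and by 1.21 ± 0.44 for the combination (adjusted p = 0.013) in the authors' deposited table, 2.11-fold and 2.32-fold higher. It fell in HCC827 with 6-thio-dG alone, at -1.71 ± 0.24 (adjusted p = 8.00e-11) or 3.28-fold lower, and was at -0.75 ± 0.54 for the combination (adjusted p = 0.27), per the authors' deposited table. Both A375 rises miss an adjusted p of 0.01. Exons of STEAP1B and of a non-coding gene on the opposite strand cover 20.7% of the exonic bases of IL6, and whether reads were counted by strand is not given in the sources used here. STEAP1B itself was at 0.29 for 6-thio-dG alone in A375 (adjusted p = 0.090) and at 0.56 for the combination in A375 (adjusted p = 0.0038) in the authors' deposited table.

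LIF, a cytokine of the IL6 family that keeps mouse embryonic stem cells undifferentiated, fell with 6-thio-dG alone in both lines. The authors' deposited table gives LIF at -0.74 ± 0.13 in A375 (adjusted p = 1.71e-07) and at -1.27 ± 0.18 in HCC827 (adjusted p = 5.02e-11). For the combination it was at 0.067 ± 0.21 in A375 (adjusted p = 0.82) and at -0.51 ± 0.24 in HCC827 (adjusted p = 0.075) in the authors' deposited table. LIF has the most GC-rich transcript of the 10 (56.9%). With the GC trend removed from the authors' values, LIF in A375 with 6-thio-dG alone was at -0.36 (adjusted p = 0.014), and the HCC827 combination value was -0.79 and passed (adjusted p = 0.021). Antisense genes, LIF-AS1 among them, overlap 6.73% of its exonic bases.

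PTGS2 had the widest range in A375. It rose with 6-thio-dG alone, at 2.08 ± 0.71 or 4.24-fold higher (adjusted p = 0.0072), and fell with the combination over PLX4720, at -1.59 ± 0.52 or 3.00-fold lower (adjusted p = 0.0055), in the authors' deposited table. In HCC827 it fell in both comparisons of the authors' deposited table, at -1.35 ± 0.28 for 6-thio-dG alone (adjusted p = 2.89e-05) and at -1.76 ± 0.31 for the combination (adjusted p = 1.30e-06). The HCC827 combination value ranks as number 11 of 11828 genes from the lowest. The transcript has 36.9% GC, and with the GC trend removed from the authors' values the A375 rise passed no test (1.16, adjusted p = 0.15). The 3 falls of PTGS2 still passed. PLA2G4A, the phospholipase that frees arachidonic acid, is a gene 148526 bases away on chromosome 1. In the authors' deposited table PLA2G4A rose in A375 with 6-thio-dG alone (1.57), and fell with the combination in A375 (-1.30) and in HCC827 (-1.04). In HCC827 with 6-thio-dG alone, where PTGS2 fell, PLA2G4A was at -0.33 in the authors' deposited table and was not called as fallen.

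Set side by side, the counts differ by line. In HCC827 with 6-thio-dG alone 9 of the 10 genes fell and 0 rose, where 14.4% of all genes fell and 14.8% rose (29.2% in either direction); 8 of the 9 fell at least 2-fold, as 4.36% of all genes did. All 10 fold changes were below 0 in the authors' deposited table, whose test is not named, and 0 of them lay above 0 at an unadjusted p under 0.05. The median of the 10 was -1.58, against 0.0094 for all genes. With 6-thio-dG alone in A375 4 genes fell (CXCL1, CCL2, IL1B and LIF; 33.7% of all genes) and 2 rose (IL6 and PTGS2; 31.3%, or 65.0% in either direction), with a median of -0.34 against 0.011 for all genes, so the share that fell is near that of the whole table. At least 2-fold falls were seen in 3 of the 10 genes and in 15.2% of all genes.

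For the combination over PLX4720 in A375 6 genes fell (CXCL1, CXCL2, CXCL3, CCL2, IL1B and PTGS2; 29.3% of all genes fell) and IL6 rose (31.2% rose, 60.5% either way), with a median of -1.15 against 0.056 for all genes. All 6 falls were at least 2-fold, as in 15.2% of all genes. For the combination over osimertinib in HCC827 4 fell (CXCL1, CXCL3, IL1B and PTGS2; 17.9% of all genes fell) and 0 rose (17.3% rose, 35.2% either way). PTGS2 alone fell at least 2-fold, as 2.15% of all genes did. All 10 values were again below 0, 7 of them with an unadjusted p under 0.05 in the authors' deposited table. The share of all genes at that unadjusted cutoff was not counted. The median of the 10 was -0.86 against -0.0039 for all genes. The implied errors were larger than usual here: their median over the 10 genes was 0.38 in the A375 combination and 0.34 in the HCC827 combination, against 0.17 for all genes in each.

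The fold change moved with GC content over all genes in each comparison. Spearman's rho across 11735 genes, which share libraries and are no replicates, was -0.39 in A375 and 0.22 in HCC827 with 6-thio-dG alone, and -0.26 in A375 and 0.75 in HCC827 with the combination. Of the 10 transcripts 9 lie below 48.7%, the median GC content of these 11735 genes. In the HCC827 combination the trend at their GC content ran from -0.85 for CXCL8 to 0.27 for LIF, and the median of the 10 less this trend was -0.61. CXCL1, LIF and PTGS2 then fell and 0 rose (2.63% of all genes fell and 3.74% rose). CCL2 lay above 0 there with the GC trend removed from the authors' values, at 0.42 with no call (adjusted p = 0.61). In HCC827 with 6-thio-dG alone the trend at the 10 genes was at most 0.17 in size, their median less the trend was -1.52, and 8 of 10 fell and 0 rose (14.5% and 13.3% of all genes). Less the trend, 6 fell and 1 rose in A375 with 6-thio-dG alone (32.2% and 28.6% of all genes), and 7 fell and 1 rose in the A375 combination (30.3% and 29.6%). The part of GC content in these results was not tested beyond this.

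**Figure D3:**
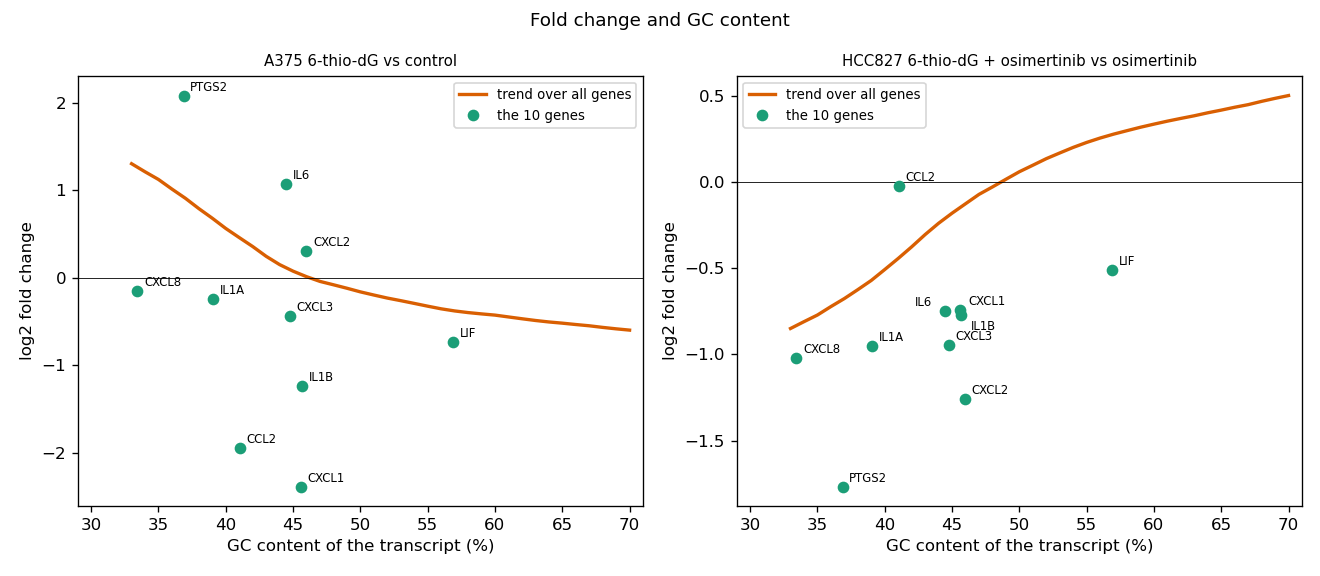
Log2 fold change (y axis) against the GC content of the longest GENCODE transcript in percent (x axis) for the 10 genes (points), with the lowess trend over all genes (line), for A375 with 6-thio-dG over control (left) and HCC827 with the combination over osimertinib (right). In the HCC827 combination CXCL8 lies close to the trend, at -1.02 against -0.85, while PTGS2 lies below it, at -1.76 against -0.68.

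Whether the effect of 6-thio-dG differed between lines was tested on the difference of the 2 log2 fold changes, A375 minus HCC827, adjusted over all genes. For 6-thio-dG alone 6 of the 10 differences were above 0 (CXCL2, CXCL8, IL1A, IL6, LIF and PTGS2) and CCL2 was below 0, where 26.2% of all genes were above and 28.9% below (55.1% in all). By the z test on the authors' values the largest were PTGS2 at 3.44 ± 0.77 (adjusted p = 2.96e-05), IL6 at 2.79 ± 0.50 (adjusted p = 1.97e-07), CXCL2 at 2.66 ± 0.57 (adjusted p = 1.52e-05) and IL1A at 2.32 ± 0.38 (adjusted p = 5.17e-09). For CXCL1 the difference of the authors' values was -0.063 with a 95% interval of -0.54 to 0.41 (adjusted p = 0.84). CXCL3 at 1.02 ± 0.53 and IL1B at -0.68 ± 0.31 missed the threshold in the z test on the authors' values (adjusted p = 0.094 and 0.052). The CXCL8 difference of 1.96 ± 0.24 shrank to 0.49 and lost its call with the GC trend removed from the authors' values (adjusted p = 0.076), while IL1B then passed at -0.76 (adjusted p = 0.033).

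For the combination 3 differences between lines were below 0 and 1 above (27.5% and 28.9% of all genes, 56.5% in all). CCL2 was at -4.70 ± 0.41 (adjusted p = 3.54e-29), CXCL1 at -2.58 ± 0.28 (adjusted p = 2.90e-18) and IL1B at -1.29 ± 0.40 (adjusted p = 0.0029), each lower in A375 by the z test on the authors' values. IL6 was at 1.96 ± 0.69 (adjusted p = 0.010), and at 1.57 with the GC trend removed from the authors' values (adjusted p = 0.053), where LIF passed at 1.03 (adjusted p = 0.0038). PTGS2 differed by 0.18 with an interval of -1.01 to 1.37, and CXCL2 by 0.052 with an interval of -1.48 to 1.58, so for these genes a difference of 2-fold lies inside the interval.

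**Figure D4:**
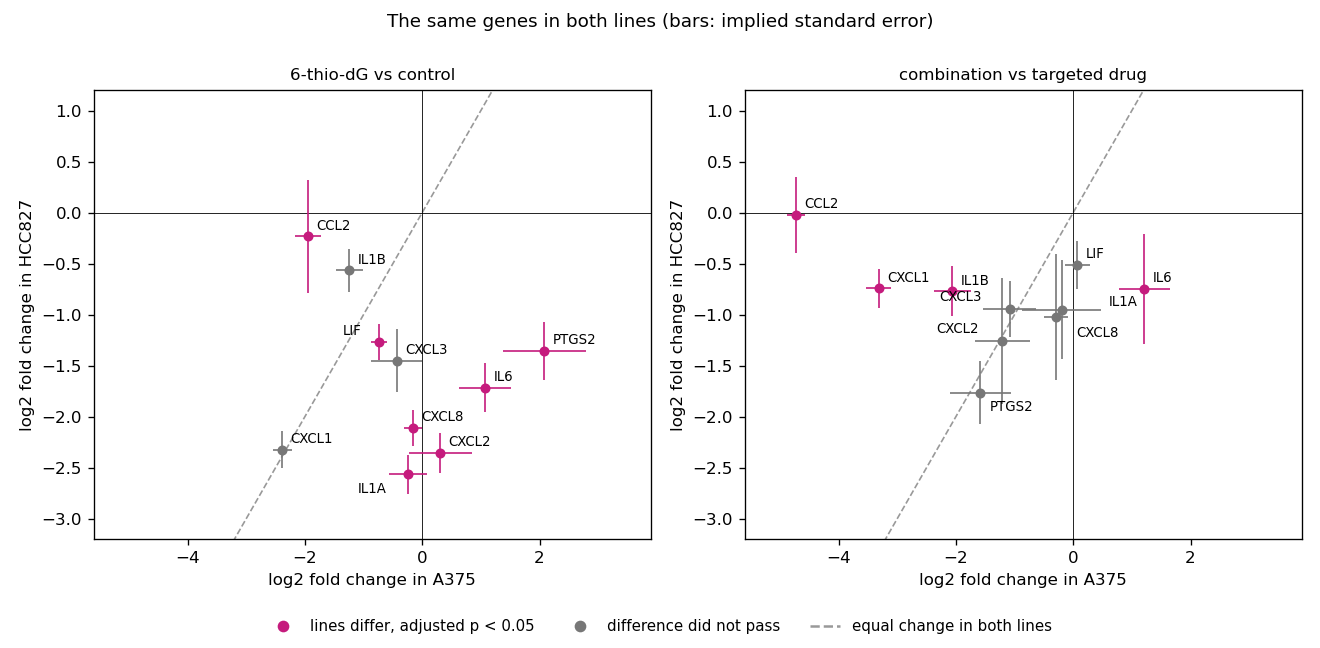
Log2 fold change in A375 (x axis) against that in HCC827 (y axis) for each of the 10 genes, for 6-thio-dG alone (left) and the combination (right), with implied standard errors as bars. Pink points differ between lines at an adjusted p under 0.05: 7 of 10 for 6-thio-dG alone and 4 of 10 for the combination. Of all genes 55.1% and 56.5% did so. CXCL1 lies on the line of equal change on the left.

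Whether the effect of 6-thio-dG differed on top of the targeted drug was tested as the effect of the combination over the drug minus the effect of 6-thio-dG alone over the control. In A375 PTGS2 (-3.67 ± 0.88, adjusted p = 0.00013), CCL2 (-2.78 ± 0.27, adjusted p = 1.39e-23) and CXCL1 (-0.93 ± 0.27, adjusted p = 0.0014) were lower on top of PLX4720, and LIF was higher (0.80 ± 0.25, adjusted p = 0.0037), by the z test on the authors' values. Of all genes 24.1% were below 0 and 28.5% above (52.6% in all). After removal of the GC trend from the authors' values, CXCL2 (-1.64, adjusted p = 0.045) and IL1B (-0.93, adjusted p = 0.034) also passed below 0 in A375, and CXCL8 passed above 0 (0.62, adjusted p = 0.034), where the deposited difference was -0.13. IL6 differed by 0.14 with an interval of -1.08 to 1.36. In HCC827 3 genes were above 0 and 0 below, where 10.8% and 11.4% of all genes were (22.3% in all). By the z test on the authors' values these were CXCL1 by 1.58 ± 0.26 (adjusted p = 1.21e-07), IL1A by 1.61 ± 0.52 (adjusted p = 0.014) and LIF by 0.76 ± 0.29 (adjusted p = 0.046). Of these 3, CXCL1 fell in both HCC827 comparisons, while IL1A and LIF fell with 6-thio-dG alone and passed no test on top of osimertinib. The LIF difference was 0.60 with the GC trend removed from the authors' values and lost its call (adjusted p = 0.14). By this z test 0 of the 10 genes in HCC827 lay below 0 at an unadjusted p under 0.05 as well. For CXCL2, CXCL8 and IL6 the HCC827 differences of 1.09, 1.09 and 0.97 missed the threshold in the z test on the authors' values (adjusted p = 0.23, 0.22 and 0.24). The CXCL8 difference in HCC827 was 1.77 with the GC trend removed from the authors' values and passed (adjusted p = 0.038).

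The genes whose 4 fold changes lay nearest to a given gene were found by Euclidean distance, each comparison scaled by its spread over all genes. Of all other genes in the table the nearest to IL1A and to CXCL2 was CXCL8, and IL1A ranked as number 3 for CXCL2 and for CXCL8. The distance between IL1A and CXCL8 was 0.64. Nearest to CXCL8 were MARK1, a kinase of microtubule-associated proteins, and DNAH5, a dynein of cilia. Nearest to CCL2 was NREP, and nearest to CXCL3 were the protease ADAM9 and the integrin subunit ITGB1. For CXCL1 the nearest other member, CXCL3, ranked as number 136, and for CCL2 the nearest, IL1B, as number 449.

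The upstream and downstream genes were counted from 9 lists of genes, with medians of the log2 fold change given in the order A375 and HCC827 with 6-thio-dG alone, then A375 and HCC827 with the combination. Over all genes these medians were 0.011, 0.0094, 0.056 and -0.0039. The NF-kB list holds 18 genes: subunits, activating kinases, inhibitors, and adaptors or targets such as TRAF1 and BIRC3. With 6-thio-dG alone 9 rose and 3 fell in A375 (31.3% and 33.7% of all genes). In HCC827 1 rose and 7 fell (14.8% and 14.4%). REL was the only subunit among the genes of the list that rose in A375. NFKBIZ, an inhibitor-like co-activator, was at 2.56 in A375 and at -1.92 in HCC827, and BIRC3, an NF-kB target that blocks cell death, at 3.84 and -1.29, in the authors' deposited table. For the combination 3 rose and 5 fell in A375, and 3 rose and 2 fell in HCC827, where 31.2% and 29.3% of all genes did in A375 and 17.3% and 17.9% in HCC827. In the combinations BCL3, an NF-kB co-regulator, was at -2.52 in A375 and REL, a subunit, was at -1.51 in HCC827 in the authors' deposited table. The medians of the NF-kB list were 0.28, -0.32, -0.10 and 0.14.

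Of 10 other transcription factors that act on these promoters, 5 rose and 1 fell with 6-thio-dG alone in A375 and 0 rose and 7 fell in HCC827; 0 rose there at an unadjusted p under 0.05. Of all genes 31.3% rose and 33.7% fell in A375, and 14.8% rose and 14.4% fell in HCC827. ATF3, a stress-induced factor, was at 5.68 in A375 and at -0.98 in HCC827, JUN, a subunit of AP-1, at 2.14 and -0.56, and HIF1A, the hypoxia factor, at -0.11 (adjusted p = 0.58) and -1.31, in the authors' deposited table. For the combination 3 rose and 7 fell in A375, with EGR1, an immediate early factor, at -3.16, and 3 fell in HCC827, with FOS, a subunit of AP-1, at -0.77, in the authors' deposited table. There 31.2% of all genes rose and 29.3% fell in A375, and 17.3% rose and 17.9% fell in HCC827. The medians of these factors were 0.25, -0.84, -1.25 and -0.20.

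Of 17 receptors and adaptors 7 rose and 5 fell with 6-thio-dG alone in A375, 3 rose and 4 fell in HCC827, 4 rose and 7 fell in the A375 combination, and 2 rose and 7 fell in the HCC827 combination. In the same order 31.3%, 14.8%, 31.2% and 17.3% of all genes rose and 33.7%, 14.4%, 29.3% and 17.9% fell. IL6ST, the shared gp130 subunit, was at 2.27 with 6-thio-dG alone in A375 and at -1.01 in the HCC827 combination in the authors' deposited table. The medians of the receptors and adaptors were 0.26, -0.065, -0.51 and -0.17. Among 7 genes of JAK-STAT signalling and its feedback 1 rose and 4 fell in A375 and 3 fell in HCC827 with 6-thio-dG alone, beside 31.3% and 33.7% of all genes in A375 and 14.4% falling in HCC827. In the combinations 4 fell in A375 (29.3% of all genes) and 1 rose in HCC827 (17.3%), with SOCS3, a feedback inhibitor that IL6 induces, at -2.47 in A375 in the authors' deposited table. The medians of the JAK-STAT list were -0.65, -0.048, -0.95 and -0.086.

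Among 10 genes of prostaglandin synthesis, transport and breakdown 2 rose and 3 fell with 6-thio-dG alone in A375, 2 rose in HCC827, 2 rose and 3 fell in the A375 combination, and 1 rose and 3 fell in the HCC827 combination. The shares of all genes in that order were 31.3%, 14.8%, 31.2% and 17.3% for rises and 33.7%, 14.4%, 29.3% and 17.9% for falls. PTGES, an enzyme that turns the PTGS2 product into prostaglandin E2, rose in A375 with 6-thio-dG alone (1.42) and with the combination (2.13). PTGES2 and PTGES3, which are listed for the same step, fell in A375 with 6-thio-dG alone (-0.76 and -0.69). In the A375 combination PTGES3 rose (1.08) and PTGES2 passed no test (0.17). HPGD, which breaks prostaglandins down, fell in the combination in A375 (-3.17) and HCC827 (-1.57), all in the authors' deposited table. Medians over the prostaglandin list were 0.17, -0.028, -0.73 and -0.12. Among 5 genes of interleukin 1 processing 1 rose and 3 fell with 6-thio-dG alone in A375, 2 fell in HCC827, 1 rose and 3 fell in the A375 combination, and 2 rose in the HCC827 combination, beside the same shares of all genes. CASP1, the protease that cleaves IL1B, was at -1.80 in HCC827 with 6-thio-dG alone in the authors' deposited table. The medians of the processing list were -0.97, -0.30, -1.28 and 0.22.

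Of 8 further cytokines 1 rose and 4 fell with 6-thio-dG alone in A375, 3 rose and 1 fell in HCC827, 1 rose and 3 fell in the A375 combination, and 2 rose in the HCC827 combination, while in the same order 31.3%, 14.8%, 31.2% and 17.3% of all genes rose and 33.7%, 14.4%, 29.3% and 17.9% fell. IL32, a cytokine that induces other mediators, was at -2.25 in HCC827 with 6-thio-dG alone, and TGFB1, a growth-restraining cytokine, at -1.86 in the A375 combination, in the authors' deposited table. Medians of the further cytokines were -0.56, 0.14, -0.43 and 0.21. Of the other chemokines the table holds CXCL16 and CX3CL1, which were at -0.49 and -1.01 in HCC827 with 6-thio-dG alone and both fell (14.4% of all genes), in the authors' deposited table. With 6-thio-dG alone in A375 1 of the 2 fell (33.7% of all genes), in the A375 combination 1 fell (29.3%) and in the HCC827 combination 1 rose (17.3%), and the medians were -2.17, -0.75, -1.68 and 0.24.

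The 3′ UTRs of most of the 10 genes are rich in the letters of AU-rich elements. The pentamer ATTTA occurred 1 to 22 times per gene, with a median density of 7.89 per kb against 1.65 per kb over the 11688 genes with a 3′ UTR. LIF at 2.18 per kb and CCL2 at 2.66 per kb exceeded only 59.6% and 67.7% of these genes. The nonamer TTATTTATT, a site for ZFP36-type decay proteins, occurred in 7 of 10 genes. It occurred in 7.42% of the 7359 genes whose 3′ UTR lies in the length range of the 10, 376 to 3204 bases. Those genes were not matched further: their median 3′ UTR was 1283 bases against 713.5 for the 10. Their median transcript GC content was 49.3% against 44.6%. Sites are shown for the CXCR2 ligands and PTGS2, to set the same letters beside genes that include CXCL1, which fell, and PTGS2, which rose, with 6-thio-dG alone in A375, with the nonamer in capitals and the flanking bases in DNA letters, from GENCODE 29 transcripts (GRCh38). Nonamers hold the pentamer and can overlap each other.
CXCL1 (148 bases after the stop codon): agtcttctatTTATTTATTtattcattag
CXCL2 (148 bases after the stop codon): agtcttctatTTATTTATTtatttattta
CXCL3 (471 bases after the stop codon): atgtcagttgTTATTTATTcaaattatct
CXCL8 (210 bases after the stop codon): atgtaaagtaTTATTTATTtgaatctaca
PTGS2 (18 bases after the stop codon): atgatcatatTTATTTATTtatatgaacc

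CXCL2 holds 5 nonamers, CXCL1 3, IL1B and LIF 2 each, and CXCL3, CXCL8 and PTGS2 1 each, while CCL2, IL1A and IL6 hold 0. Among the 7 regulators of mRNA decay looked for, 1 rose and 5 fell with 6-thio-dG alone in A375, and 1 rose and 3 fell in HCC827. In the combinations 3 fell in A375, and 1 rose and 2 fell in HCC827. In the same order 31.3%, 14.8%, 31.2% and 17.3% of all genes rose and 33.7%, 14.4%, 29.3% and 17.9% fell. The 7 include ELAVL1, which stabilises such mRNAs and fell with 6-thio-dG alone in A375 (-1.57) in the authors' deposited table. ZC3H12A, an RNase that cleaves IL6 mRNA, was at -0.0030 in A375 (adjusted p = 0.99) and at -1.99 in HCC827 with 6-thio-dG alone, and HNRNPD, an AU-rich element binding protein, at -2.09 in A375 and at -0.32 in HCC827 (adjusted p = 0.15), in the authors' deposited table. With 6-thio-dG alone ZFP36 rose in A375 (0.65, adjusted p = 0.011) and fell in HCC827 (-0.73, adjusted p = 0.023) in the authors' deposited table. There ZFP36 also fell in the combination in A375 (-1.40) and in HCC827 (-0.65). Medians of the 7 decay regulators were -1.53, -0.32, -0.24 and -0.095.

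**Figure D5:**
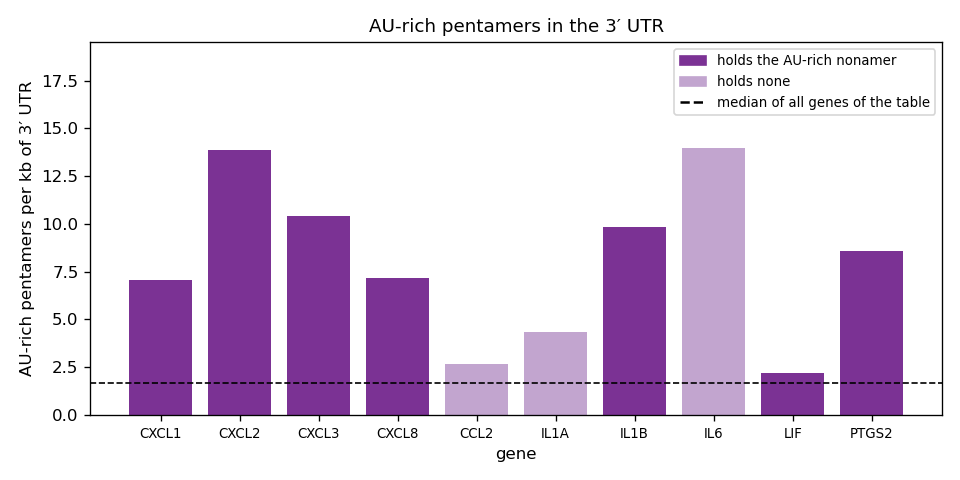
Density of AU-rich pentamers per kb of 3′ UTR (y axis) for each of the 10 genes (x axis), with genes that hold the nonamer in dark purple and the median of all genes of the table as a dashed line. All 10 genes lie above the median, from 2.18 per kb in LIF to 14.0 per kb in IL6.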

How the data were processed

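Per the labels, mRNA was selected with poly-T beads and libraries were made with the NEB Next Ultra RNA kit; the submitters' processing notes name FastQC, Trimmomatic, STAR and hg38. No source used here names the counting tool, the test or any filter (not given in the sources used here). Per the file headers, the deposited values are log2 fold changes made by the authors, and the other deposited columns are p-values and adjusted p-values made by the authors. With no counts in the table, no count model was fitted and calls rest on the authors' adjusted p. The depth per library is unknown, so precision is known only through the implied SE. The members, gene lists and tests were chosen with earlier results of these data known. The text names all members; of each list at most 3 genes with the smallest p in a comparison; the genes nearest in pattern; and genome neighbours within 250000 bases.

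The SE came from the normal z that a two-sided p corresponds to, and is the size of the fold change over that of z. Differences between comparisons, which share no libraries as read here, were tested by a two-sided z test with Benjamini-Hochberg adjustment over all genes, leaving out genes with p listed as 0; the steps were tested on simulated data. Symbols were matched to GENCODE 29 (GRCh38), 11780 of 11828 to a single gene, and GC content came from the longest basic protein-coding transcript (11735 genes). The GC trend was removed with lowess over 0.3 of the genes (statsmodels 0.14.6). The implied SE was kept, so p-values with the trend removed leave out the error of the trend. Promoter sequences came from RefSeq (GRCh38.p14). Alternatives were an adjusted p of 0.01, at least 2-fold, adjustment over the table, centring on the median, GC removal and a t reading with 4 degrees of freedom.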

Additional observations from a re-analysis of the deposited data

Results flagged for a closer look

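The results here were marked because an effect of 6-thio-dG differed between lines or between backgrounds by the z test of the difference (adjusted p under 0.05 over all genes). Such differences were common in the whole table. Between lines 55.1% of all genes differed with 6-thio-dG alone and 56.5% with the combination. Between backgrounds 52.6% of all genes differed in A375 and 22.3% in HCC827.

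Between lines, as A375 minus HCC827 on the log2 scale with 6-thio-dG alone, PTGS2 was at 3.44, IL6 at 2.79, CXCL2 at 2.66, IL1A at 2.32, CXCL8 at 1.96, LIF at 0.53 and CCL2 at -1.72. IL6 and PTGS2 rose in A375 and fell in HCC827, while CXCL2, CXCL8 and IL1A fell in HCC827 and passed no test in A375. With the GC trend removed from the authors' values, CXCL8 in A375 was at -1.45 (adjusted p = 6.11e-19) and its line difference was 0.49 and lost its call (adjusted p = 0.076). In the same GC-corrected form of the authors' values IL1A in A375 was at -0.92 (adjusted p = 0.0092), and the PTGS2 rise in A375 was 1.16 and lost its call (adjusted p = 0.15). With the combination the differences were -4.70 for CCL2, -2.58 for CXCL1, -1.29 for IL1B and 1.96 for IL6, the last of which was 1.57 with the GC trend removed from the authors' values (adjusted p = 0.053).

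Between backgrounds, as the combination effect minus the effect of 6-thio-dG alone, A375 gave -3.67 for PTGS2, -2.78 for CCL2, -0.93 for CXCL1 and 0.80 for LIF. In HCC827 the differences were 1.58 for CXCL1, 1.61 for IL1A and 0.76 for LIF, the last of which was 0.60 with the GC trend removed from the authors' values (adjusted p = 0.14). PTGS2 in A375 rose with 6-thio-dG alone and fell on top of PLX4720, with implied errors of 0.71 and 0.52, both well above the median of 0.17 over all genes in those comparisons.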

How the results depend on the processing

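Of 360 values of single genes under the alternatives, 321 kept their direction and their side of the threshold, 21 lost a call, 17 gained one and 1 reversed: the A375 background difference of CXCL8, -0.13 as deposited, was 0.62 with the GC trend removed, as the trend at its GC content differs between the 2 comparisons. Adjustment over the table changed no call of a single gene, and centring on the median gave 1 further call. With the GC trend removed 1 gene rose with 6-thio-dG alone in A375, in place of 2, as 28.6% of all genes did. Line differences below 0 for 6-thio-dG alone were then 2, in place of 1. A375 background differences were 5 below 0, in place of 3, and 2 above 0, in place of 1. Before that removal 28.9% of all genes lay below 0 in that line difference. In that background difference 24.1% lay below 0 and 28.5% above. With the trend removed 309 of all genes fell in the HCC827 combination, in place of 2115, and 439 rose, in place of 2052.

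At an adjusted p of 0.01, 1 of the 10 genes rose with 6-thio-dG alone in A375 and 0 in the A375 combination (31.3% and 31.2% of all genes at 0.05). At 0.01 also, 0 line differences for the combination and 1 HCC827 background difference lay above 0 (28.9% and 10.8% of all genes at 0.05). Over all genes 1100 fell and 1139 rose at 0.01 with 6-thio-dG alone in HCC827, and 1362 fell and 1224 rose in the HCC827 combination. Of the HCC827 background differences over all genes 779 then lay below 0 and 780 above. At 2-fold or more 1 of the 10 genes fell in the HCC827 combination. Over all genes 1795 fell and 1873 rose with 6-thio-dG alone in A375, 516 and 482 in HCC827, 1802 and 1400 in the A375 combination, and 254 and 19 in the HCC827 combination. The t reading of p, at 4 degrees of freedom, put 3 line differences for 6-thio-dG alone below 0, 5 A375 background differences and 1 HCC827 background difference. Under the normal reading 28.9%, 24.1% and 11.4% of all genes lay below 0 in that order. By its construction the t reading gives small p-values very small errors. No paired analysis was possible because the table holds no values per library, and for the same reason no library could be left out.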
